A study of Mus musculus with 9 samples.

Results

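The integrin subunits, the laminin chains and their closest basement membrane partners were examined in mesenchymal cells of 3 tissues of the mouse. The set was defined by gene symbol: 18 integrin alpha subunits, 8 integrin beta subunits, 11 laminin chains, and Nid1, Nid2, Hspg2, Agrn and Dag1. It holds 42 of the 23420 gene symbols in the count tables, and all 42 passed the filter on low counts.

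Integrins are cell surface receptors, each made of an alpha and a beta chain, that tie the cytoskeleton to proteins outside the cell. The alpha chain largely sets which protein is bound: collagen, laminin, proteins with an RGD motif such as fibronectin and vitronectin, or counter-receptors on other cells. Laminins are trimers of an alpha, a beta and a gamma chain and form the first sheet of a basement membrane. Nidogens and perlecan link that sheet to collagen IV, and agrin and dystroglycan tie it to the cell. In the thymus, bone and dermis, mesenchymal cells lie next to basement membranes of vessels and epithelia, and many of them make laminin chains themselves.

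RNA was sequenced from cells sorted from thymus, from bone (femur, tibia and pelvis) and from truncal skin (dermis of abdomen and back), with 3 libraries per tissue. All mice were of the C57BL/6 strain, aged 3 to 4 weeks, with no treatment named. The sort kept cells with the surface protein SCA1 and removed cells stained for blood lineages (CD45, TER119, CD41, CD4, CD2, B220, GR-1 or CD11b), for endothelium (CD31) or for epithelium (EpCAM). Thymus was digested with enzymes, and bone was digested, crushed and freed of red cells; the sources used here do not give the digestion of skin. Of the members, Itgam encodes CD11b and Itga2b encodes CD41, so the sort selected against the proteins of both. The thymus libraries are named 2, 3 and 1-3, and the sources used here do not say what the last name stands for.

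Reads on genes numbered 78757872 to 116759235 per library. Mesenchymal transcripts were abundant in every library: 10 listed fibroblast and mesenchymal genes summed to 52669.5 to 55770.5 CPM in thymus, 67566 to 68349.8 CPM in bone and 334427 to 370984 CPM in skin. The skin sum was mostly Col3a1, Col1a1 and Col1a2, with means of 154316, 97246 and 80380.2 CPM there. Of the 10 genes, 2 were higher and 6 lower in thymus than in skin. Pdgfrb, 1 of the 2, had means of 756, 271 and 257 CPM in thymus, bone and skin. CPM stands for counts scaled to a common library size, with the TMM factors of edgeR, and is not corrected for gene length. Myeloid transcripts were high in bone, where 11 listed genes summed to 2639.7 to 3703 CPM, against 14.6 to 52.1 CPM in thymus and 43 to 101 CPM in skin. Values per library are given for thymus 2, 3 and 1-3 and for replicates 1, 2 and 3 of bone and of skin, in that order. Means carry the SD over n = 3 libraries. Changes are log2 fold changes ± SE from edgeR's quasi-likelihood test, with p-values adjusted over all 15635 genes tested and a threshold of 0.05. Nothing in the labels ties the libraries to separate mice, and the p-values therefore describe only how far these samples spread, which may be technical. In bulk RNA, fewer cells of a type and less RNA per cell cannot be told apart.

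Of the 42 members, 40 differed between at least 1 pair of tissues (95.2%, against 60.6% of all genes tested), and 17 differed in all 3 comparisons (40.5%, against 11.0% of all genes). Between thymus and bone, 14 members were higher and 18 lower in thymus, that is 33.3% and 42.9% of the members, against 16.5% and 16.1% of all genes tested. Against skin, thymus had 17 members higher and 10 lower (40.5% and 23.8%, against 19.3% and 18.3% of all genes). Against skin, bone had 16 members higher and 16 lower (38.1% each, against 23.7% and 23.4% of all genes). The 3 comparisons share libraries, so their counts are not independent of each other. Scaling matters against skin: with library size only, the median of all genes moved by 0.63 (thymus over skin) and 0.69 (bone over skin) on the log2 scale. Against skin, the members then split as 23 higher and 6 lower in thymus, and as 21 higher and 8 lower in bone; limma on log2(RPKM + 1) gave 18 and 6 in thymus and 16 and 11 in bone. Without skin 2, the members higher in thymus than in skin numbered 11.

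A member was counted as apart where 1 tissue differed from each of the others by 2-fold or more, one way, with both tests passed. In thymus, 3 members were apart as higher (Itga1, Itga8 and Lama1) and 4 as lower (Itga11, Itga2b, Itgam and Itgb3), against 4.05% and 3.83% of all genes tested. In bone, 12 were higher (Itga4, Itga6, Itga7, Itga10, Itgad, Itgal, Itgam, Itgb2, Itgb4, Itgb8, Lama3 and Lama5) and 8 lower (Lama2, Lama4, Lamb1, Lamb3, Lamc1, Lamc3, Nid1 and Nid2), against 6.51% and 3.86% of all genes. In skin, 2 were higher (among them Nid1) and 10 lower (Itga1, Itga4, Itga6, Itga7, Itga8, Itgad, Itgal, Itgax, Itgb2 and Itgb8), against 5.00% and 7.55% of all genes. Of the 12 members apart as higher in bone, 10 were integrin subunits, 4 of them leukocyte and platelet subunits. The 42 members hold 18 integrin alpha and 8 integrin beta subunits. All 8 members apart as lower in bone were laminin chains or nidogens. Leaving out 1 library at a time, members apart as higher in bone numbered 8 to 13, and those lower in bone 7 to 9. With library size only, 6 members were apart as higher in thymus, 5 as lower in bone and 1 as higher in skin. Limma on log2(RPKM + 1) gave 2 lower in thymus, 4 lower in bone, 1 higher in skin and 6 lower in skin, and on log2(RPKM + 0.1) it gave 5 higher and 2 lower in thymus, 5 lower in bone and 1 higher in skin. The members higher in skin numbered 1 without thymus 2 or skin 2 and 4 without bone 3.

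**Figure D1:**
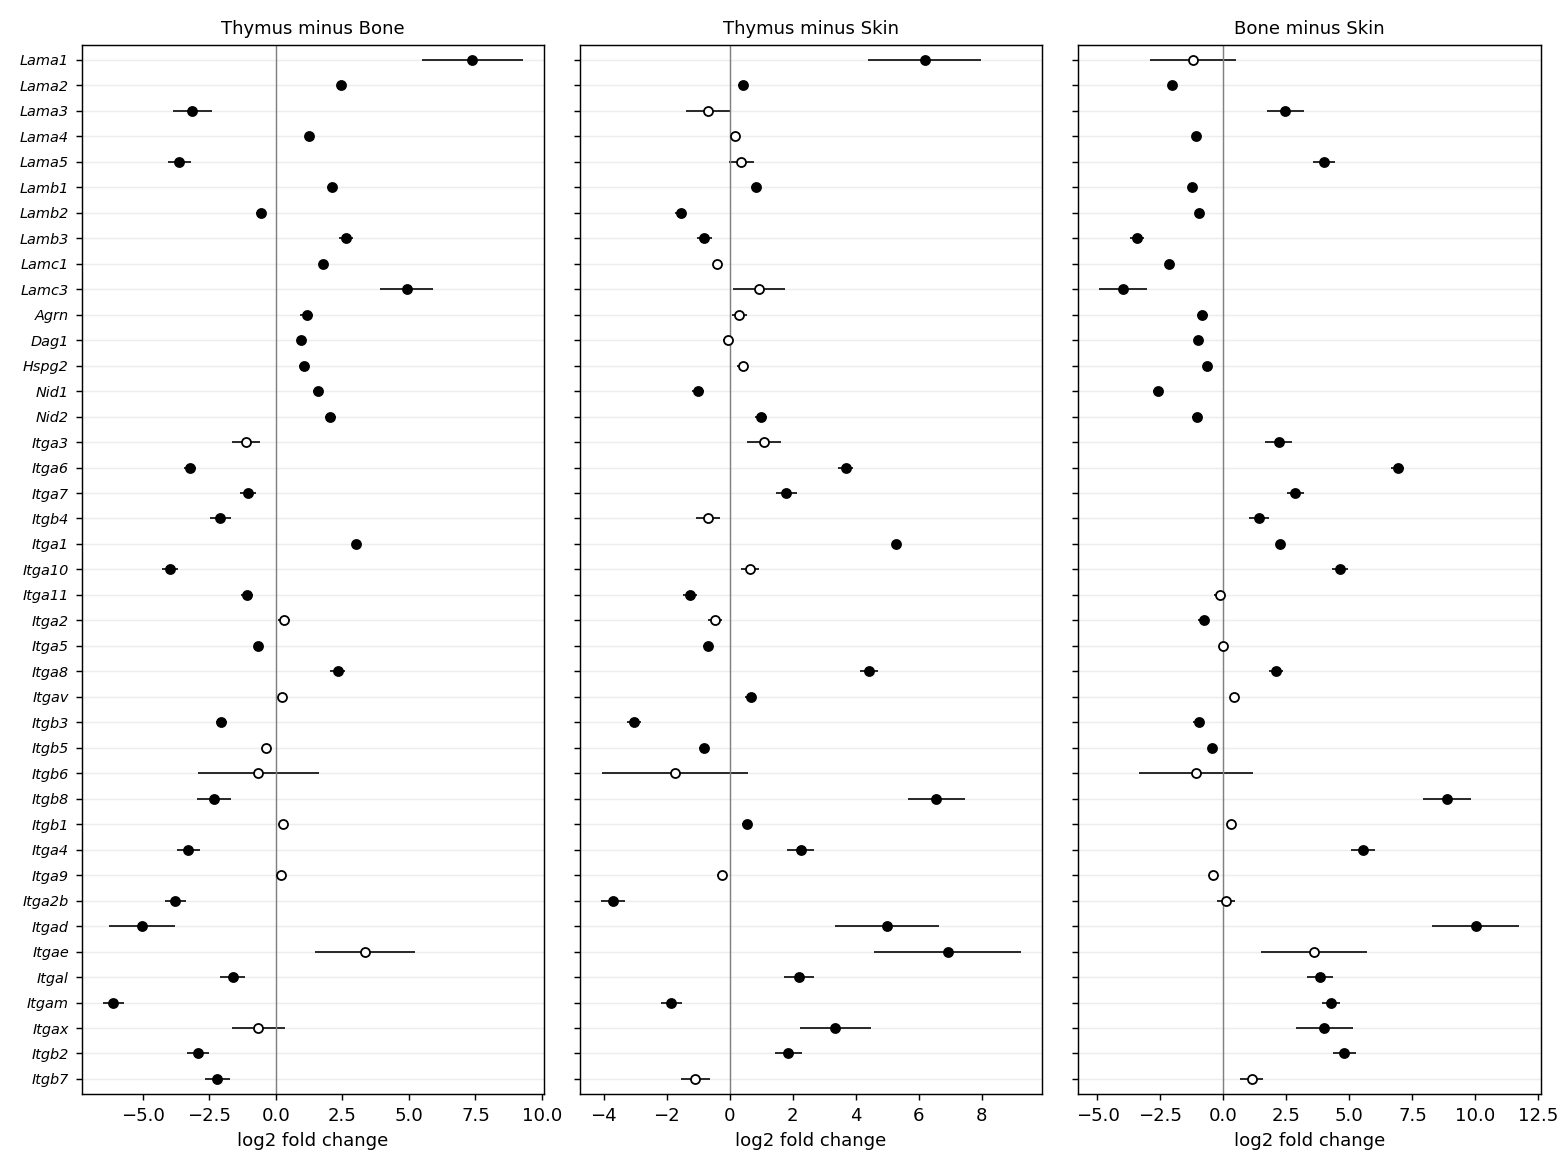
Log2 fold changes of members for thymus minus bone, thymus minus skin and bone minus skin, with bars of 1 SE; filled points passed an adjusted p of 0.05 and open points did not. In the panels that hold bone, it stands low in Lama2, Lama4, Lamb1, Lamc1, Nid1 and Nid2, and high in Itga4, Itga6, Itga10, Itgam and Itgb2.

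Of the abundant laminin chains, Lama2, Lama4, Lamb1 and Lamc1 were lowest in bone, while Lamb2 was not. Lama2 (chr10:26981285-27616942, mm10), the alpha chain found around muscle, nerve and many mesenchymal cells, had 1409.6, 1313 and 1236 CPM in thymus, 247, 259 and 217 CPM in bone, and 915, 1045 and 1027 CPM in skin. Thymus and skin each lay well above bone with no overlap, and thymus lay just above skin. Its change was 2.45 ± 0.14 for thymus over bone (adjusted p = 3.48e-07) and -2.05 ± 0.14 for bone over skin (adjusted p = 8.46e-07). The small difference between thymus and skin (0.41 ± 0.14, adjusted p = 0.0349) missed the threshold without thymus 2, thymus 3, bone 1, skin 1 or skin 2 (adjusted p = 0.113, 0.0839, 0.0535, 0.0992 and 0.0642).

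Lama4, the alpha chain of vessel walls and many stromal cells, had 993, 895 and 869 CPM in thymus, 404, 372 and 392 CPM in bone, and 823, 914 and 734 CPM in skin. Again the bone libraries were the lowest, while thymus and skin overlapped. The change was 1.24 ± 0.14 for thymus over bone (adjusted p = 3.53e-05) and -1.08 ± 0.14 for bone over skin (adjusted p = 6.11e-05).

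Among the beta chains, Lamb1 and Lamb2 went different ways. Lamb1 (chr12:31265294-31329639), the widely used beta chain, had 1896, 1628 and 1714 CPM in thymus, 419.6, 421 and 386 CPM in bone, and 979, 1132 and 817 CPM in skin. The 3 tissues did not overlap, and thymus was the highest and bone the lowest. Its change was 2.09 ± 0.16 for thymus over bone (adjusted p = 2.2e-06), 0.84 ± 0.15 for thymus over skin (adjusted p = 0.00105) and -1.26 ± 0.15 for bone over skin (adjusted p = 4.71e-05).

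Lamb2, the beta chain of synapses, glomeruli and mature vessels, had 327, 329.7 and 318 CPM in thymus, 499, 451 and 505 CPM in bone, and 730.1, 1049 and 1086 CPM in skin. Here thymus was the lowest tissue and skin the highest, with no overlap between any pair. Thymus over skin came to -1.56 ± 0.16 (adjusted p = 1.84e-05) and bone over skin to -0.98 ± 0.16 (adjusted p = 0.00042). The smaller difference between thymus and bone (-0.58 ± 0.16, adjusted p = 0.0164) missed the threshold without bone 1 or bone 3 (adjusted p = 0.0545 and 0.0562), and that between bone and skin missed it with library size only.

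Lamc1, the gamma chain of most laminins, had 2242, 2088 and 2660.3 CPM in thymus, 674, 679 and 716 CPM in bone, and 2795, 3362 and 3003 CPM in skin. Every thymus and skin library held more than any bone library. The change was 1.76 ± 0.15 for thymus over bone (adjusted p = 5.74e-06) and -2.15 ± 0.15 for bone over skin (adjusted p = 1.04e-06), while thymus over skin came to -0.39 ± 0.15 (adjusted p = 0.057).

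The promoters of Lama2, Lamb1 and Nid1 are shown because these abundant genes were low in bone together, and those of Itga1 and Itga8, given with the integrins, because both were high in thymus; the choice was made after their values were seen. The sequences are RefSeq's for GRCm38.p6, which is mm10, from 250 bases before to 50 after the gene start, read 5′ to 3′ on the gene's strand. Lama2 lies on the minus strand (chr10:27616893-27617192), Lamb1 on the plus strand (chr12:31265043-31265342) and Nid1 on the plus strand (chr13:13437352-13437651). Capitals mark matches on either strand to a GC box (GGGCGG) in all 3, to a CArG box in Lama2 and to a TEAD site (GGAATG) in Nid1.
Lama2: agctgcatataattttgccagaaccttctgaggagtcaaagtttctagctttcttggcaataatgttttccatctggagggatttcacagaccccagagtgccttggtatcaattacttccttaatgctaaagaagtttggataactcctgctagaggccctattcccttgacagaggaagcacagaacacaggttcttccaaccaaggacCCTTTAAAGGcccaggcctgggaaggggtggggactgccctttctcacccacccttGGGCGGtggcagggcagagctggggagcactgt
Lamb1: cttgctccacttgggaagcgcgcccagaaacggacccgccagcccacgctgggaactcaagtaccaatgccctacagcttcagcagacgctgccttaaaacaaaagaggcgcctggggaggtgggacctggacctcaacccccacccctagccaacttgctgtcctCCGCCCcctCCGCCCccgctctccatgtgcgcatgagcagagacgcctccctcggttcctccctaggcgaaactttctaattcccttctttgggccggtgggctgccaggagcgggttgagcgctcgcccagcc
Nid1: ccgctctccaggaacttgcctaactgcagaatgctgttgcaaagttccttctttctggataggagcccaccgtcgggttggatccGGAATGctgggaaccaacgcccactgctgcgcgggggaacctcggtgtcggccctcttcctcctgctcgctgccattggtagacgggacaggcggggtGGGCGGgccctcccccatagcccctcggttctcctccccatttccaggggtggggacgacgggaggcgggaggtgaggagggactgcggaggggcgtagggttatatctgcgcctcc

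Of the 42 members, 27 matched a promoter in the RefSeq table, with 32 entries in all. The GC box was in 18 of the 32 entries (56.2%), against 35.7% of all 32851 promoters of 300 bases. The TATA box (TATAAA) was in 0 of 32 entries against 13.6% of all, the AP-1 site (TGANTCA) in 3 (9.38% against 7.81%), the TEAD site in 4 (12.5% against 14.7%) and the CArG box in 2 (6.25% against 1.63%). Both strands were searched, and matches of different motifs were counted separately even where they overlap. These are matches of letters, and no test was made of them. Members without a matching entry included Itga6, Itga7, Itgad, Itgae, Itgal, Itgb2, Itgb3, Itgb4, Lama1, Lama3, Lama4, Lamc1, Lamc3 and Nid2.

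The rarer laminin chains did not share 1 order of tissues. Lama5, the alpha chain of most adult vessels and epithelia, had 4.79, 3.06 and 3.4 CPM in thymus, 54.4, 43.8 and 42.1 CPM in bone, and 1.27, 2.54 and 4.92 CPM in skin. Bone stood far above both other tissues, which overlapped. Lama5 was lower in thymus than in bone (-3.64 ± 0.43, adjusted p = 0.000106) and higher in bone than in skin (4 ± 0.44, adjusted p = 4.17e-05; 4.63 without skin 3). Lama3, an alpha chain of epithelia, had a mean of 0.948 ± 0.721 CPM in thymus, 8.38 ± 2.64 CPM in bone and 1.52 ± 0.71 CPM in skin. Its difference between bone and skin (2.46 ± 0.72, adjusted p = 0.0157) missed the threshold without skin 1 or skin 2 (adjusted p = 0.0537 and 0.0628).

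Lama1, the alpha chain of the early embryo, was at the edge of detection, with 1.29, 1.39 and 1 CPM in thymus, 0, 0.0171 and 0 CPM in bone, and 0.045, 0 and 0 CPM in skin. Behind these values are 422 reads of thymus, 2 reads of bone and 4 reads of skin. The ratio of thymus to bone was 194 with a 95% counting interval of 53.2 to 1603, which covers counting error only. The difference between thymus and skin (adjusted p = 0.0168) missed the threshold without thymus 3 or skin 2 (adjusted p = 0.0565 and 0.0659).

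Lamb3, the beta chain of an epithelial laminin that also holds Lama3, had 17.1, 16 and 11.3 CPM in thymus, 1.81, 2.92 and 2.46 CPM in bone, and 19.6, 33.1 and 24.8 CPM in skin. Bone was the lowest by far and skin the highest. The gap between thymus and bone was wide (2.63 ± 0.27, adjusted p = 1.91e-05), as was that between bone and skin (-3.43 ± 0.28, adjusted p = 2.4e-06). The gap between thymus and skin (-0.8 ± 0.25, adjusted p = 0.0255) missed the threshold without thymus 3, thymus 1-3 or skin 2 (adjusted p = 0.0515, 0.0839 and 0.141), and with library size only.

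Keratinocyte and hair follicle transcripts had the same order of tissues as Lamb3 in their sum. The 12 listed markers summed to 23 to 30.4 CPM in thymus, 5.45 to 8.33 CPM in bone and 148 to 448 CPM in skin. Of these 12, 11 were lower in bone than in skin and 8 lower in thymus than in skin, and Krt15 and Dsg3 had 0 reads in bone. Within skin the order differed: Krt71, the largest marker there, had 76.3, 70.5 and 240.5 CPM, while Lamb3 was highest in skin 2. Trp63 had its highest mean in thymus, 11.9 ± 3.2 CPM against 5.83 ± 3.67 CPM in skin, a difference that did not pass. The part of keratinocytes and hair follicle cells in the level of Lamb3 was not tested. Lamc3, a gamma chain of nerve and retina, had a mean of 9.59 ± 3.38 CPM in thymus, 0.313 ± 0.286 CPM in bone and 5.06 ± 4 CPM in skin. Thymus over bone came to 4.91 ± 0.99 (adjusted p = 0.00397; 5.7 without bone 2) and bone over skin to -3.99 ± 0.95 (adjusted p = 0.00662; -4.78 without bone 2 and -3.13 without skin 3).

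The partners of laminin in the basement membrane were also low in bone. Nid1 (chr13:13437602-13512275), which bridges laminin and collagen IV, had 2322, 3181 and 3120.1 CPM in thymus, 997, 1097 and 805 CPM in bone, and 4889, 6309.8 and 6226 CPM in skin. The 3 tissues did not overlap, with skin the highest and bone the lowest. Thymus over bone came to 1.57 ± 0.19 (adjusted p = 6.27e-05) and bone over skin to -2.59 ± 0.2 (adjusted p = 1.5e-06). The difference of thymus from skin (-1.01 ± 0.19, adjusted p = 0.00111) missed the threshold with library size only.

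Nid2, its close relative, had 453, 359 and 419 CPM in thymus, 109, 115 and 74.3 CPM in bone, and 211, 249 and 161 CPM in skin. Thymus was the highest tissue here, and bone again the lowest, with no overlap. The change was 2.04 ± 0.21 for thymus over bone (adjusted p = 1.67e-05), 0.99 ± 0.2 for thymus over skin (adjusted p = 0.0021) and -1.05 ± 0.2 for bone over skin (adjusted p = 0.0011), the last call being lost with library size only. Per length, in the deposited RPKM, Nid1 exceeded Nid2 by 5.37 ± 1.41 times in thymus, 7.39 ± 0.627 times in bone and 21.9 ± 6.31 times in skin.

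Hspg2, which encodes perlecan, had 4262, 3344 and 4487 CPM in thymus, 1970.1, 1961 and 1877 CPM in bone, and 3127, 3592 and 2405 CPM in skin. Thymus and skin both lay above bone without overlap. Thymus over bone came to 1.06 ± 0.18 (adjusted p = 0.000813) and bone over skin to -0.65 ± 0.18 (adjusted p = 0.0104). The second call was lost without skin 2 (adjusted p = 0.0528), and with library size only the value was 0.04.

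Dag1, which encodes dystroglycan, a laminin receptor that is not an integrin, had a mean of 696 ± 119 CPM in thymus, 357 ± 13.4 CPM in bone and 719.7 ± 104 CPM in skin. Agrn, which encodes agrin, had 107 ± 12.9 CPM in thymus, 48 ± 11.6 CPM in bone and 86 ± 28 CPM in skin. Both were higher in thymus than in bone (Dag1 0.96 ± 0.16, adjusted p = 0.000796; Agrn 1.15 ± 0.23, adjusted p = 0.00261). Against skin, both were lower in bone (Dag1 adjusted p = 0.000353, Agrn adjusted p = 0.0106), and those calls were lost with library size only. All 5 partners passed as higher in thymus than in bone, against 16.5% of all genes tested, with a median log2 change of 1.15 against 0.02 over all genes tested. All 5 also passed as lower in bone when set against skin (against 23.4% of all genes; median -1.01 against 0.03), though for Hspg2 the sign changed with library size only.

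Endothelial transcripts also had their lowest sum in bone, though single genes went both ways. The 12 listed genes summed to 574 to 660.4 CPM in thymus, 161 to 182 CPM in bone and 368 to 509.5 CPM in skin. Eng, which mesenchymal cells also use, was the largest of them in thymus and bone, with means of 536 CPM in thymus, 81.6 CPM in bone and 149 CPM in skin. It made up most of the thymus sum. Tek was the largest in skin, with means of 44.4 CPM in thymus, 31.6 CPM in bone and 236 CPM in skin. Pecam1, which encodes the CD31 that the sort removed, had means of 10.8, 13.9 and 6 CPM in thymus, bone and skin. Of the 12 genes, 3 were higher and 2 lower in thymus than in bone, 3 were higher and 2 lower in thymus against skin, and 4 were higher and 3 lower in bone against skin; none was at 0 reads. Their part in the levels of the laminins, nidogens and Hspg2 was not tested.

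**Figure D2:**
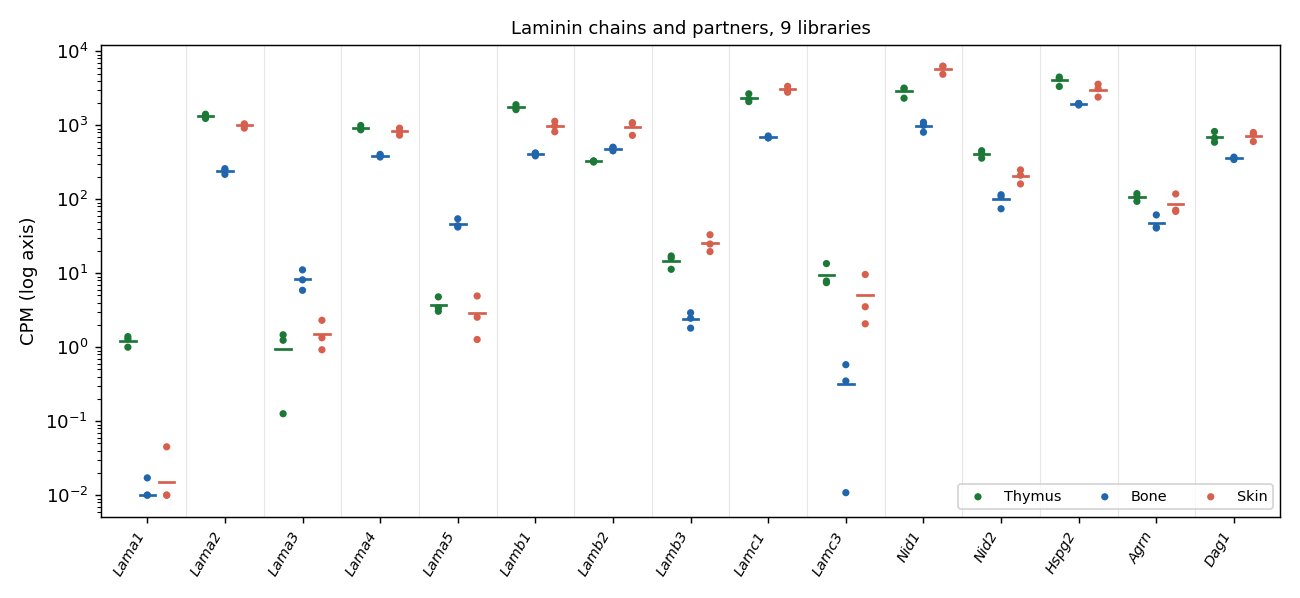
Level of laminin chains and their 5 partners in CPM on a log axis, with a point per library and a line at the mean of each tissue; values under 0.01 are drawn at 0.01. Bone lies lowest for Lama2, Lama4, Lamb1, Lamc1, Nid1 and Hspg2, and highest for Lama3 and Lama5.

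To compare chains with each other, the RPKM made by the authors were used, since they are per length. The sources used here do not give the length they used. In thymus the summed RPKM was 291 ± 23.9 for the alpha chains, 368 ± 22.2 for the beta chains and 312 ± 28.8 for the gamma chains. For bone these sums were 95.1 ± 2.67, 159.6 ± 1.25 and 93.9 ± 4.17, and for skin 165 ± 5.84, 237 ± 19.7 and 286 ± 14.3. Thymus and bone thus had alpha and gamma sums of similar size, while in skin the gamma sum was the larger. Nid1 was the member with the highest RPKM in thymus (481 ± 85.1, rank 61 of 23015 genes) and in skin (661 ± 73.4, rank 49), and Itgb1 in bone (192 ± 7.8, rank 176).

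Lama4 and Lama2 made up nearly all of the alpha chain RPKM. Lama4 held 53.2, 52.3 and 53.3% in thymus, 68.2, 66.3 and 71% in bone, and 59.2, 58.4 and 53.5% in skin. Lama2 held 46.6, 47.5 and 46.6% in thymus, 25.8, 28.6 and 24.3% in bone, and 40.7, 41.4 and 46.2% in skin. Bone thus leaned towards Lama4, and Lama5 held 4.4 ± 0.448% there, against 0.112 ± 0.018% in thymus and 0.112 ± 0.0719% in skin. In CPM without length, the share of Lama2 was 58.8% in thymus, 35.1% in bone and 54.6% in skin, so which of Lama2 and Lama4 led in thymus and skin depended on the unit.

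Lamb1 held 83.9, 81.8 and 83.1% of the beta chain RPKM in thymus, 45, 47.1 and 42.4% in bone, and 55.7, 50.1 and 41.5% in skin. Thymus stood apart from both other tissues, which overlapped. The ratio of Lamb1 to Lamb2 was 5.17 ± 0.39 in thymus, 0.82 ± 0.0787 in bone and 1.03 ± 0.286 in skin. Lamc1 held 98.9 ± 0.211% of the gamma chain RPKM in thymus, 97.4 ± 0.454% in bone and 96.5 ± 0.641% in skin.

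Shares of Lama2 and Lamb1 were compared between tissues with exact two-sided permutation tests, 6 in all, adjusted together. This exact permutation test gave p = 0.1 for 5 of the 6 comparisons, the smallest value that 3 against 3 libraries allow (adjusted p = 0.12). Lamb1 in bone against skin gave p = 0.5 (adjusted p = 0.5, exact permutation test).

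**Figure D3:**
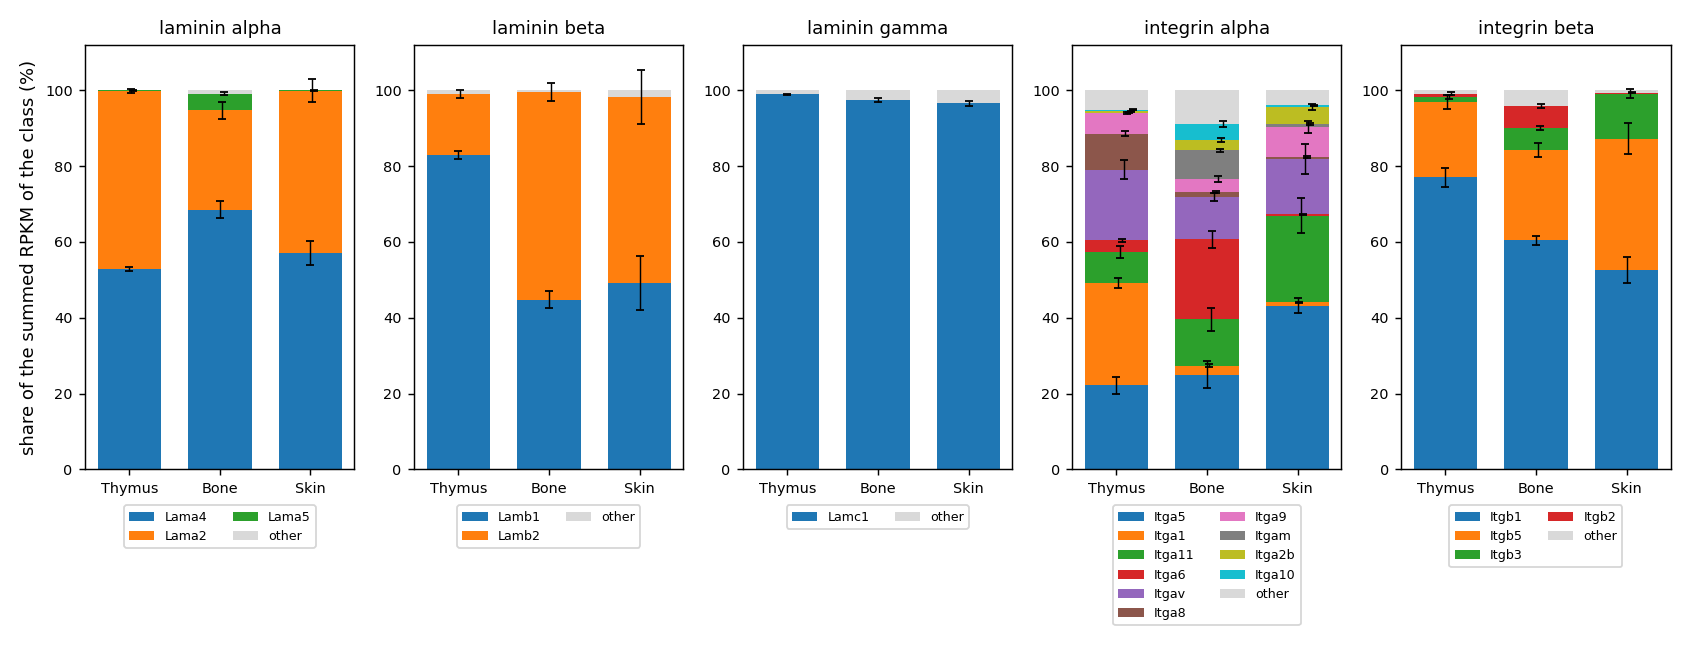
Share of each chain in the summed RPKM of its class, in percent, as the mean of 3 libraries per tissue with bars of 1 SD at the top of each segment; chains with small shares are joined as other. Lamb1 holds 82.9% of the beta chain RPKM in thymus, against 44.8% in bone and 49.1% in skin, and Itga1 holds 27% of the integrin alpha RPKM in thymus, against 2.38% in bone and 0.849% in skin.

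Among the receptors, the collagen-binding integrin chains had their highest levels in different tissues. Itga1 (chr13:114958081-115101964), the alpha chain that prefers collagen IV, had 266, 222 and 226 CPM in thymus, 32.5, 29.9 and 25.6 CPM in bone, and 6.02, 5.98 and 6.31 CPM in skin. The 3 tissues lay far apart, with a tight spread within each. Itga1 was higher in thymus than in bone (3.02 ± 0.14, adjusted p = 6.48e-08) and than in skin (5.29 ± 0.15, adjusted p = 4.79e-09). It was also higher in bone than in skin (2.26 ± 0.14, adjusted p = 3.58e-07).

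Itga11, the alpha chain for fibrillar collagen in fibroblasts, went the other way, with 48.6, 61.7 and 63.9 CPM in thymus, 125, 149 and 99.7 CPM in bone, and 94.7, 149 and 170.2 CPM in skin. Thymus lay below both other tissues, which overlapped. The change was -1.1 ± 0.22 for thymus over bone (adjusted p = 0.0025) and -1.25 ± 0.22 for thymus over skin (adjusted p = 0.000915). The ratio of Itga1 to Itga11 in RPKM was 3.47 ± 0.909 in thymus, 0.199 ± 0.0286 in bone and 0.0386 ± 0.012 in skin.

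Itga10, a collagen receptor chain of cartilage, had 3.94, 1.68 and 2.53 CPM in thymus, 41.2, 48.7 and 39.2 CPM in bone, and 2.24, 1.54 and 1.43 CPM in skin. All bone libraries lay far above the others. The change was -3.98 ± 0.31 for thymus over bone (adjusted p = 2.95e-06), while bone was higher than skin (4.63 ± 0.33, adjusted p = 9.14e-07). Itga2, the collagen receptor chain of platelets and epithelia, had 10 ± 2.14 CPM in thymus, 8.11 ± 1.03 CPM in bone and 14 ± 2.11 CPM in skin. It passed in bone against skin alone (-0.79 ± 0.22, adjusted p = 0.0116), a call lost with library size only.

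Itga1 and Itga2 are neighbours on chromosome 13, 26 kb apart in the deposited mm10 coordinates, and Itga1 alone was high in thymus. The deposited coordinates place Pelo within the span of Itga1 and E030013I19Rik within that of Itga8. Likewise 4931431B13Rik overlaps Itgad, Gsg2 overlaps Itgae, and a long Mir684-1 entry on chromosome 2 spans Itga4, Itga6 and Itgb6. The sources used here do not give the strand setting of the counting, and without strand the reads of such pairs cannot be told apart.

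Itga8 (chr2:12106660-12301920), an RGD-binding chain of mesenchyme and smooth muscle, had 94.6, 76.8 and 76 CPM in thymus, 17.7, 19.2 and 12.8 CPM in bone, and 2.18, 4.45 and 4.94 CPM in skin. As with Itga1, thymus was highest, bone in between and skin lowest, with no overlap. The change was 2.32 ± 0.27 for thymus over bone (adjusted p = 7.63e-05), 4.42 ± 0.3 for thymus over skin (adjusted p = 1.15e-06) and 2.1 ± 0.28 for bone over skin (adjusted p = 0.000104).

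The promoters of both genes lie on the minus strand, Itga1 at chr13:115101915-115102214 and Itga8 at chr2:12301895-12302194 in GRCm38.p6. Neither holds any of the 5 motifs searched, so no letter is in capitals.
Itga1: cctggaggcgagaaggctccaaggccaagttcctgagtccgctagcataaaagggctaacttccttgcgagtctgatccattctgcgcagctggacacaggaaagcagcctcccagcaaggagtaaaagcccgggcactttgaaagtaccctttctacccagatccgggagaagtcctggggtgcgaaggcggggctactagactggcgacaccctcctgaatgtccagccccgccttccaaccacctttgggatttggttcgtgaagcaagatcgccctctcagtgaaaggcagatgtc
Itga8: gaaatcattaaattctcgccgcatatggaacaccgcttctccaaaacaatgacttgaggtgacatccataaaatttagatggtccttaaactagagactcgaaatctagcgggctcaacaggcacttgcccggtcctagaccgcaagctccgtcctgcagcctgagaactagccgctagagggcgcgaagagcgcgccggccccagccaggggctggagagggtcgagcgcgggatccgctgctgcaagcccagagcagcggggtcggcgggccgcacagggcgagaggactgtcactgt

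The summed level of pericyte and smooth muscle transcripts was also highest in thymus, though single markers went both ways. The 14 listed markers summed to 2185 to 2613 CPM in thymus, 724 to 783 CPM in bone and 573 to 708 CPM in skin. Of the 14, 9 were higher and 2 lower (Rgs5 and Cspg4) in thymus than in bone, and 10 were higher and 1 lower in thymus than in skin. Rgs5 had 15.3 ± 4.53, 72.2 ± 7.28 and 0.674 ± 0.324 CPM in thymus, bone and skin. Cspg4 had 23.8 ± 3.28, 212 ± 19.9 and 14.8 ± 4.02 CPM. Pdgfrb, also on the fibroblast and mesenchymal list, was the largest of the 14 in thymus, with a mean of 756 CPM. None was at 0 reads in any tissue. Des, also a muscle gene, had 691 ± 140.1 CPM in thymus, 12.6 ± 4.3 CPM in bone and 11.7 ± 2.31 CPM in skin, while Myh11 had 37.6 ± 0.768, 4.64 ± 2.05 and 1.31 ± 1.01 CPM in thymus, bone and skin. The part of pericytes and smooth muscle cells in the levels of Itga1 and Itga8 was not tested.

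The other RGD-binding chains differed less, apart from Itgb3 and Itgb8. Itga5, the alpha chain of the fibronectin receptor, had 148, 134 and 153 CPM in thymus, 229, 191 and 274 CPM in bone, and 195, 252 and 249.6 CPM in skin. Thymus was below both other tissues, which had the same mean. Its change was -0.67 ± 0.16 for thymus over bone (adjusted p = 0.00688) and -0.68 ± 0.16 for thymus over skin (adjusted p = 0.00554), the second call being lost with library size only. Itgav, the alpha chain of the vitronectin receptors, had 197 ± 37.7 CPM in thymus, 166 ± 24.9 CPM in bone and 124 ± 20.9 CPM in skin. It passed in thymus against skin alone (0.67 ± 0.18, adjusted p = 0.0118), a call lost without thymus 2 or skin 2 (adjusted p = 0.0543 and 0.0523).

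Itgb3, a beta partner of Itgav and of Itga2b, had 17, 28.1 and 29.7 CPM in thymus, 103, 90.7 and 116 CPM in bone, and 226, 208 and 183 CPM in skin. The tissues did not overlap, with skin the highest and thymus the lowest. Thymus was lower than bone (-2.05 ± 0.2, adjusted p = 1.39e-05) and than skin (-3.04 ± 0.21, adjusted p = 7.28e-07). Bone over skin came to -0.99 ± 0.2 (adjusted p = 0.00136), a call lost with library size only.

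Itgb5, another partner of Itgav, had 192 ± 21.9 CPM in thymus, 247 ± 7.72 CPM in bone and 339 ± 38.9 CPM in skin. Thymus over skin came to -0.83 ± 0.14 (adjusted p = 0.00058), a call lost with library size only. Bone over skin came to -0.46 ± 0.14 (adjusted p = 0.0158), which missed the threshold without bone 3 or skin 2 (adjusted p = 0.0542 and 0.0659) and turned to 0.23 with library size only. Itgb6, a chain of epithelial cells, was at 0 to 0.669 CPM in all libraries and passed in no comparison.

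Itgb8, a partner of Itgav that activates latent TGF-beta, had 7.7, 4.5 and 2.62 CPM in thymus, 23.3, 22.3 and 29.1 CPM in bone, and 0, 0.176 and 0 CPM in skin. The skin values rest on 12 reads, all in skin 2. Bone was the highest and skin close to 0, with no overlap. Itgb8 was higher in thymus than in skin (6.56 ± 0.9, adjusted p = 0.000345) and in bone than in skin (8.89 ± 0.95, adjusted p = 5.12e-05). These fold changes depend on so few skin reads that they were 12 and 14.33 without skin 2, 5.92 and 8.25 without skin 1, and 5.94 and 8.27 without skin 3. The lower level in thymus than in bone (-2.33 ± 0.64, adjusted p = 0.0202) missed the threshold without thymus 3, thymus 1-3 or bone 3 (adjusted p = 0.0682, 0.0726 and 0.0765), and also with DESeq2.

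All 4 laminin-binding subunits were higher in bone than in skin, against 23.7% of all genes tested, and 3 of them were lower in thymus than in bone, against 16.1%. Itga6, the main laminin receptor chain of epithelia, vessels and progenitor cells, had 23.6, 18.4 and 16.5 CPM in thymus, 214, 151 and 184 CPM in bone, and 1.6, 1.06 and 1.88 CPM in skin. The 3 tissues were far apart. Thymus was lower than bone (-3.23 ± 0.22, adjusted p = 1e-06) and higher than skin (3.68 ± 0.23, adjusted p = 3.8e-07). It was higher in bone than in skin by 6.91 ± 0.26 (adjusted p = 1.92e-08), a fold of 120.3.

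Itga7, a laminin receptor chain of muscle, had 8.49, 6.05 and 6.69 CPM in thymus, 14.5, 12.4 and 17.1 CPM in bone, and 1.63, 3.12 and 1.36 CPM in skin. Bone was highest and skin lowest with no overlap. Both differences from skin passed (1.8 ± 0.32, adjusted p = 0.000987 for thymus, and 2.85 ± 0.34, adjusted p = 3.55e-05 for bone). The difference between thymus and bone (-1.05 ± 0.31, adjusted p = 0.0237) missed the threshold without thymus 3, thymus 1-3, bone 1 or bone 3 (adjusted p = 0.0822, 0.0677, 0.0515 and 0.0898).

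Itga3, whose usual ligands are laminins of epithelia and vessels, had 3.31 ± 1.25 CPM in thymus, 7.19 ± 4.37 CPM in bone and 1.57 ± 0.82 CPM in skin. It passed in bone against skin alone (2.19 ± 0.55, adjusted p = 0.00651). Itgb4, the hemidesmosome partner of Itga6, had 1.8 ± 0.468 CPM in thymus, 7.67 ± 2.71 CPM in bone and 2.9 ± 0.834 CPM in skin. Thymus over bone came to -2.09 ± 0.39 (adjusted p = 0.0017), and its higher level in bone than in skin (1.4 ± 0.39, adjusted p = 0.0106) missed the threshold without bone 1 (adjusted p = 0.0535). In RPKM, Itga6 held 21.1 ± 2.25% of the integrin alpha sum in bone, against 3.16 ± 0.399% in thymus and 0.305 ± 0.0921% in skin.

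Itgb1, the shared beta chain of the collagen and laminin receptors and of Itga5 and Itga8, had 1036, 1001 and 837 CPM in thymus, 844, 740.2 and 813 CPM in bone, and 716, 626 and 639 CPM in skin. Thymus and bone overlapped and skin lay below both. Only thymus over skin passed (0.54 ± 0.14, adjusted p = 0.0101). In RPKM, Itgb1 held 77 ± 2.51% of the integrin beta sum in thymus, 60.4 ± 1.14% in bone and 52.6 ± 3.52% in skin. Itgb5 held 19.8 ± 1.81%, 23.9 ± 1.87% and 34.6 ± 4.12% in thymus, bone and skin, and Itgb3 held 1.48 ± 0.506%, 5.66 ± 0.498% and 11.9 ± 1.14%. The ratio of Itgb1 to Itgb3 in RPKM was 57.1 ± 23.7 in thymus, 10.7 ± 0.887 in bone and 4.44 ± 0.338 in skin.

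Itga4, which binds VCAM1 and fibronectin on cells of blood and some mesenchyme, had 2.33, 6.43 and 3.95 CPM in thymus, 36.7, 48.2 and 39.7 CPM in bone, and 1.35, 0.425 and 0.865 CPM in skin. Bone was high, thymus low and skin lowest, with no overlap. The change was -3.29 ± 0.43 for thymus over bone (adjusted p = 0.000195), 2.25 ± 0.43 for thymus over skin (adjusted p = 0.00198) and 5.54 ± 0.48 for bone over skin (adjusted p = 8.61e-06). Itga9, its close relative, had 57.7 ± 1.63 CPM in thymus, 50.7 ± 8.5 CPM in bone and 67.7 ± 12.4 CPM in skin, and passed in no comparison; the closest was bone over skin (-0.42 ± 0.16, adjusted p = 0.0508).

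Of the 8 leukocyte and platelet subunits, 6 were lower in thymus than in bone, against 16.1% of all genes tested, and 2 did not pass. Itgam, the CD11b chain of myeloid cells, had 0.764, 0.828 and 1.58 CPM in thymus, 81, 64.1 and 74 CPM in bone, and 4.05, 2.15 and 5.17 CPM in skin. Bone lay far above the other tissues, and thymus was the lowest, with no overlap. The change was -6.12 ± 0.4 for thymus over bone (adjusted p = 1.74e-06), -1.85 ± 0.34 for thymus over skin (adjusted p = 0.00156) and 4.26 ± 0.36 for bone over skin (adjusted p = 6.39e-06). The call of thymus against skin was lost with limma on log2(RPKM + 1).

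Itgb2, the beta partner of Itgam, Itgal, Itgax and Itgad, had 3.56, 10.5 and 6.84 CPM in thymus, 55.3, 45.4 and 57.7 CPM in bone, and 1.6, 1.16 and 2.96 CPM in skin. The order was bone, thymus, skin, with no overlap. Its change was -2.92 ± 0.42 for thymus over bone (adjusted p = 0.000477), 1.86 ± 0.42 for thymus over skin (adjusted p = 0.00561) and 4.79 ± 0.46 for bone over skin (adjusted p = 2.29e-05). Itgal, the chain of LFA-1, had 2.9, 13.4 and 7.04 CPM in thymus, 19.2, 27.5 and 25.3 CPM in bone, and 2.14, 1.83 and 1.13 CPM in skin. Thymus 3 was the highest of the thymus libraries for both genes. Against skin, Itgal was higher in thymus (2.19 ± 0.48, adjusted p = 0.0046; 1.55 without thymus 3) and in bone (3.82 ± 0.51, adjusted p = 0.000156). Its lower level in thymus than in bone (-1.63 ± 0.46, adjusted p = 0.0213; -2.27 without thymus 3) missed the threshold without thymus 1-3, bone 2 or bone 3 (adjusted p = 0.0873, 0.0585 and 0.0531).

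Like these chains, the myeloid list had its highest sum in bone. All 11 of its genes were lower in thymus than in bone, and 9 of 11 were higher in bone than in skin. Between thymus and skin the chains differed in direction, with Itgam lower in thymus and Itgb2 and Itgal higher. Of the 11 myeloid genes, 3 were higher and 1 lower in thymus than in skin, and 7 did not pass. S100a8, a granulocyte gene, had 2.18 ± 0.27 CPM in thymus, 736 ± 172 CPM in bone and 0.383 ± 0.354 CPM in skin. Elane, of early granulocytes, had 0 reads in skin. B cell transcripts were high in bone too, where 10 listed genes summed to 213 to 259.8 CPM, against 70.2 to 115 CPM in thymus and 115 to 134 CPM in skin. The thymus and skin sums were mostly Ebf1, with means of 74, 94 and 123 CPM in thymus, bone and skin. Means were under 1 CPM for 8 of the 10 genes in thymus, for 8 in skin and for 0 in bone. Of these 10, 8 were lower in thymus than in bone and 9 higher in bone against skin; Igll1 had 0 reads in thymus, and 3 of the 10, Vpreb3 and Igll1 among them, had 0 reads in skin. The part of myeloid and B cells in the bone levels of Itgam, Itgb2, Itgal, Itgad, Itgb7 and Itga4 was not tested.

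The rarer leukocyte chains Itgad, Itgax and Itgae had few reads in skin (1, 49 and 2). Itgad had 0, 0.402 and 0.098 CPM in thymus, 10.2, 3.65 and 2.76 CPM in bone, and 0.0112, 0 and 0 CPM in skin. Every bone library lay above all others, and bone 1 was the highest. Behind these values are 58 reads in thymus, 1729 in bone and 1 in skin, and the ratio of bone to skin was 1349.5 with a 95% counting interval of 242 to 53333. The fitted change of bone over skin was 10.02 ± 1.73 (adjusted p = 0.00068), and 9.24 without bone 1 or 12.12 without skin 1. Its lower level in thymus than in bone (-5.04 ± 1.25, adjusted p = 0.00967) missed the threshold without thymus 1-3 (adjusted p = 0.0533). Without thymus 2, thymus 3 and bone 1, that change was -4.45, -6.81 and -4.25. The difference between thymus and skin (adjusted p = 0.0353) was lost without thymus 3, thymus 1-3 or any 1 of the skin libraries (adjusted p = 0.0517 to 0.165).

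Itgax, the CD11c chain of dendritic cells, had 1.93 ± 1.87 CPM in thymus, 3.05 ± 1.13 CPM in bone and 0.186 ± 0.207 CPM in skin. It was higher in bone than in skin (4.01 ± 1.15, adjusted p = 0.0135; 5.36 without skin 1). Its difference between thymus and skin (3.35 ± 1.12, adjusted p = 0.0341; 4.71 without skin 1) missed the threshold without thymus 3, thymus 1-3, skin 2 or skin 3 (adjusted p = 0.152, 0.06, 0.0828 and 0.0938). Itgam, Itgax and Itgad lie side by side on chromosome 7, with gaps of 11.1 and 23.3 kb.

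Itgae, the CD103 chain of intraepithelial T cells, had 0.562, 2.14 and 0.98 CPM in thymus, 0, 0.358 and 0 CPM in bone, and 0, 0.0293 and 0 CPM in skin. Only the thymus libraries all held reads. The ratio of thymus to skin was 151 with a 95% counting interval of 41.7 to 1254, from 423 and 2 reads. Its call (adjusted p = 0.0349) was lost without thymus 3, thymus 1-3 or any 1 of the skin libraries (adjusted p = 0.0564 to 0.117). T cell transcripts were present in thymus as well: of 10 listed genes, 5 were higher in thymus than in bone and 5 did not pass, and 7 were higher and 1 lower in thymus than in skin. Their sums, mostly of Thy1, which stromal cells also use, were 588 to 984 CPM in thymus, 226 to 315 CPM in bone and 1046 to 1102 CPM in skin. Cd3d and Cd3e had 0 reads in skin, and Ptcra had 0 reads in bone and in skin. The part of T cells in the level of Itgae was not tested.

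Itgb7, the beta partner of Itgae and Itga4 in lymphocytes, had 1.89 ± 1.27 CPM in thymus, 8.73 ± 0.389 CPM in bone and 4.02 ± 1.53 CPM in skin. Thymus over bone came to -2.2 ± 0.46 (adjusted p = 0.00321; -2.91 without thymus 3). Neither difference from skin passed (adjusted p = 0.0781 for thymus and 0.0577 for bone).

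Itga2b, the CD41 chain of platelets and their precursors, had 0.663, 1.62 and 1.79 CPM in thymus, 20.5, 11.6 and 24.3 CPM in bone, and 18.4, 19.7 and 15 CPM in skin. Thymus was far below bone and skin, which overlapped. The change was -3.79 ± 0.39 for thymus over bone (adjusted p = 2.8e-05) and -3.7 ± 0.39 for thymus over skin (adjusted p = 2.59e-05). Of 9 other platelet and megakaryocyte markers tested, summed levels were 11.4 to 16.7 CPM in thymus, 17.4 to 79.6 CPM in bone and 9.04 to 11.4 CPM in skin. In skin, 5 of the 11 listed had 0 reads, among them Gp5, Gp6, Treml1 and Clec1b, and in thymus 4 had 0 reads, among them Gp6, Gp9 and Treml1. Of the 9, 3 were lower in thymus than in bone, and 5 were higher in bone than in skin. The part of platelets and their precursors in the bone level of Itga2b was not tested.

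**Figure D4:**
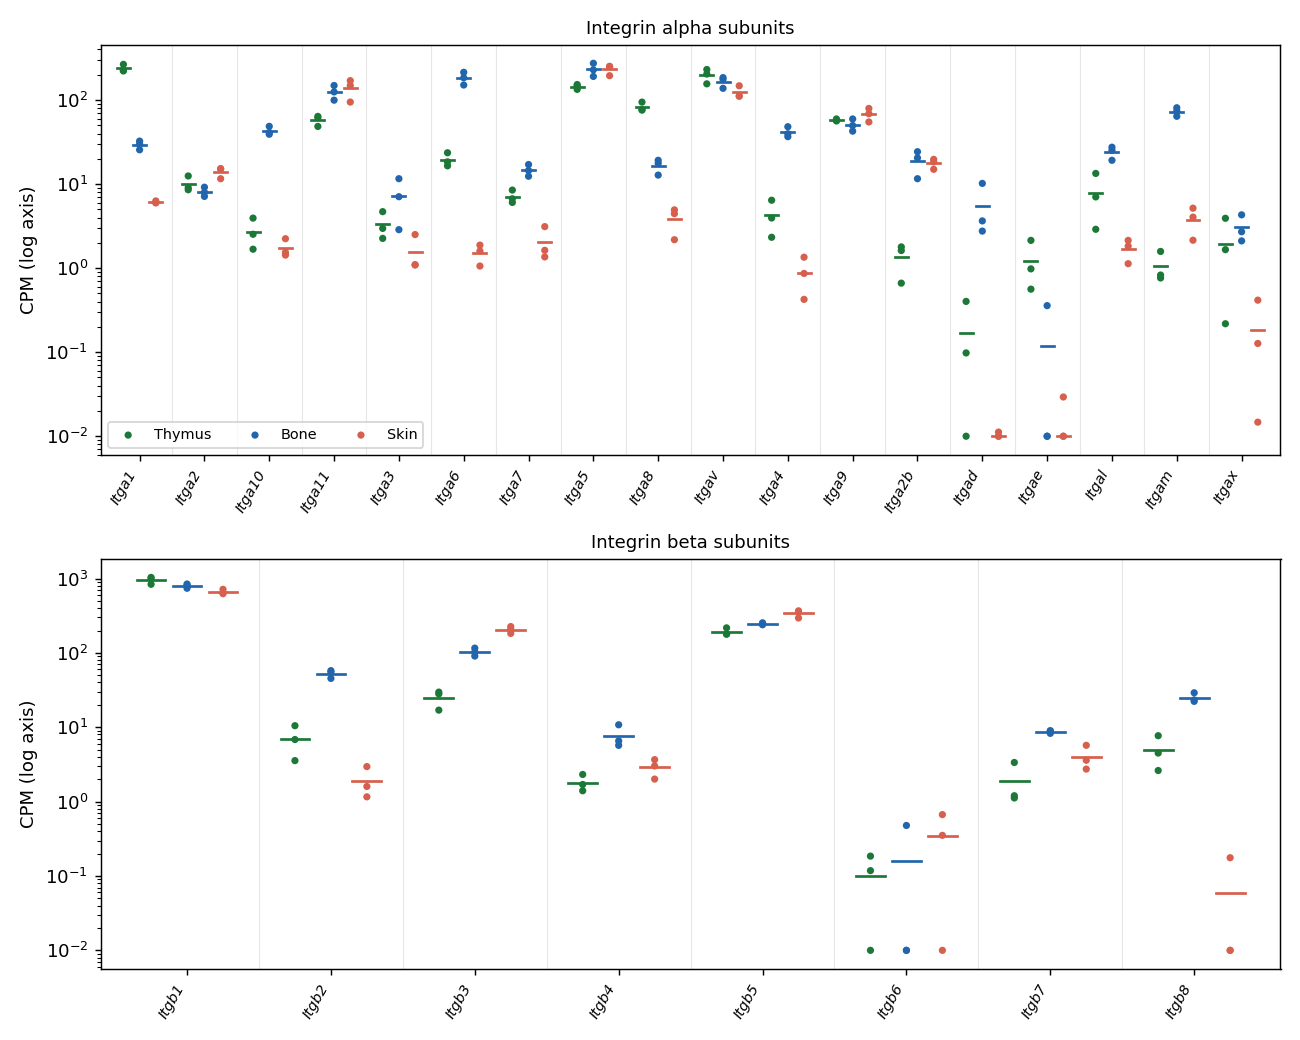
Level of the 18 integrin alpha subunits (upper panel) and 8 beta subunits (lower panel) in CPM on a log axis, with a point per library and a line at the mean of each tissue; values under 0.01 are drawn at 0.01. Itga1 and Itga8 are highest in thymus, Itga6, Itga10, Itga4, Itgam and Itgb2 are highest in bone, and Itgb8 is near 0 in skin.

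Genes that work with these subunits were described as lists, beside a median log2 change over all genes tested of 0.02 (thymus over bone), 0.03 (thymus over skin) and 0.03 (bone over skin). Of 25 other basement membrane genes tested, 13 were higher and 5 lower in thymus than in bone, with a median of 1.03. Against skin, 9 were higher and 6 lower in thymus (median 0.38), and 7 were higher and 10 lower in bone (median -0.16). Col15a1, a collagen of vessel and muscle basement membranes, had 6841 ± 1122 CPM in thymus, 652 ± 83.2 CPM in bone and 769 ± 175 CPM in skin. Col7a1, the anchoring fibril collagen, had 87.8 ± 22.2 CPM in thymus, 1.85 ± 0.204 CPM in bone and 4.45 ± 0.683 CPM in skin. Both were higher in thymus than in bone (adjusted p = 6.13e-07 and 4.05e-08) and than in skin (adjusted p = 6.5e-07 and 1.01e-07).

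Sparc and Pxdn, of the same list, were highest in skin. Sparc, a collagen-binding matrix protein, had 9142 ± 491 CPM in thymus, 8925 ± 148 CPM in bone and 37948 ± 4277 CPM in skin. Pxdn, the peroxidase that crosslinks collagen IV, had 435 ± 33.1 CPM in thymus, 168 ± 14.3 CPM in bone and 910.2 ± 39.2 CPM in skin. Bone over skin came to -2.09 for Sparc (adjusted p = 1.25e-06) and -2.44 for Pxdn (adjusted p = 2.25e-07).

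Of 23 integrin ligands tested, 10 were higher and 10 lower in thymus than in bone (median 0.47). Against skin, 8 were higher and 9 lower in thymus (median 0.21), and 8 were higher and 11 lower in bone (median -0.39). Fn1, which encodes fibronectin, had 2411 ± 721 CPM in thymus, 36951 ± 4514 CPM in bone and 20436 ± 4000.3 CPM in skin. Thymus was far lower than bone (-3.94, adjusted p = 9.35e-07) and than skin (-3.08, adjusted p = 2.88e-06). Mfge8, an RGD protein, had 1448 ± 197 CPM in thymus, 163 ± 10.8 CPM in bone and 255 ± 45.7 CPM in skin.

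Mfge8 was thus higher in thymus than in bone (3.15, adjusted p = 3.01e-07) and than in skin (2.51, adjusted p = 7.9e-07). Ltbp1, which holds latent TGF-beta in the matrix, had 1402 ± 99.4 CPM in thymus, 233 ± 40.1 CPM in bone and 305 ± 34 CPM in skin. Cyr61, a matricellular ligand, had 334 ± 24 CPM in thymus, 458 ± 27.4 CPM in bone and 1862 ± 215 CPM in skin, with a change of -2.48 for thymus over skin (adjusted p = 2.6e-07).

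Of 30 integrin adaptors, 13 were higher and 6 lower in thymus than in bone (median 0.4). Against skin, 10 were higher and 4 lower in thymus (median 0.12), and 10 were higher and 11 lower in bone (median -0.23). Tln2, a talin, had 46.9 ± 1.64 CPM in thymus, 232 ± 39.3 CPM in bone and 17.8 ± 5.46 CPM in skin, while Tln1, the common talin, had 372 ± 42.2, 350.3 ± 11.3 and 312 ± 45.1 CPM in thymus, bone and skin and passed in no comparison. Tln2 was lower in thymus than in bone (-2.31, adjusted p = 1.26e-05) and higher in bone than in skin (3.71, adjusted p = 5.37e-07).

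Actn1, an actin crosslinker of focal adhesions, had 210.3 ± 18.5 CPM in thymus, 129.9 ± 19 CPM in bone and 14.6 ± 2.79 CPM in skin. Tns3, a tensin, had 149.5 ± 21.9 CPM in thymus, 106 ± 17.4 CPM in bone and 27.2 ± 5.22 CPM in skin. Both were higher than in skin in thymus (adjusted p = 6.04e-08 and 1.48e-06) and in bone (adjusted p = 2.25e-07 and 6.39e-06). Pxn, which encodes paxillin, had its highest mean in skin, with 102 ± 15.8 CPM in thymus, 74.8 ± 7.53 CPM in bone and 243 ± 21.1 CPM in skin.

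Of 23 genes of the dystroglycan complex and its glycosylation tested, 5 were higher and 4 lower in thymus than in bone (median 0.21). Against skin, 6 were higher and 5 lower in thymus (median 0.02), and 8 were higher and 8 lower in bone (median -0.28). Dmd, which encodes dystrophin, had 44.1 ± 2.84 CPM in thymus, 29.9 ± 2.54 CPM in bone and 10.7 ± 0.553 CPM in skin. Plec, which encodes the linker plectin, had 288 ± 39.6 CPM in thymus, 531 ± 62.1 CPM in bone and 205 ± 9.66 CPM in skin. Dmd was higher in thymus than in skin (2.04, adjusted p = 6.96e-07), and Plec was higher in bone than in skin (1.37, adjusted p = 1.77e-05). Sgcb, a sarcoglycan, had 89.4 ± 7.1 CPM in thymus, 77.3 ± 5.38 CPM in bone and 24.5 ± 8.67 CPM in skin. Sgce, its relative, had 139 ± 12.7, 67.3 ± 5.74 and 159 ± 20.1 CPM in thymus, bone and skin.

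Of 14 other laminin receptors and tetraspanins, 7 were higher and 3 lower in thymus than in bone (median 0.59). Against skin, 7 were higher and 3 lower in thymus (median 0.72), and 8 were higher and 5 lower in bone (median 0.52). Cd82, a tetraspanin that pairs with integrins, had 102 ± 14.1 CPM in thymus, 36 ± 2.33 CPM in bone and 4.5 ± 1.97 CPM in skin. It was higher in thymus than in bone (1.5, adjusted p = 0.00104) and than in skin (4.5, adjusted p = 8.36e-07). The syndecans Sdc1 and Sdc2 were both lowest in skin, Sdc2 with 461 ± 33.1 CPM in thymus, 628 ± 50.9 CPM in bone and 189 ± 9.83 CPM in skin. Bsg, which encodes basigin, had 337 ± 49.6 CPM in thymus, 242 ± 9.04 CPM in bone and 745 ± 24.1 CPM in skin.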

How the data were processed

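Per the labels' protocols, cells were sorted into TRIzol, and total RNA was purified. CASAVA 1.8.2, HTSeq 0.5.4 and the build mm10 appear, without roles, in the submitters' processing notes. No aligner, annotation or strand setting was given in the sources used here. Counts in the deposited tables are whole reads for each gene symbol, and the 5 summary lines of each table (5.05 to 14.8% of reads) were left out. The authors also deposited RPKM per gene with mm10 coordinates, and a deposited signal column (summed read bases) that was not used for results. All 42 members had a single RPKM line.

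Counts of all 9 libraries were fitted with a mean per tissue in edgeR 4.0.16 (R 4.3.3), by the robust quasi-likelihood test after TMM scaling and filterByExpr by tissue, with Benjamini-Hochberg adjustment. The scaling factors ranged over 1.1 to 1.18 for thymus libraries, 1.16 to 1.23 for bone libraries and 0.701 to 0.77 for skin libraries. The SE of a log2 fold change was worked back from the test's F statistic and is approximate. A group with 1 to 3 reads is given as a ratio with its 95% counting interval. Limma 3.58.1 and DESeq2 1.42.0 served as alternatives, with other scalings and filters, a replicate block and each library left out. The test was checked on simulated counts.

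The members, classes and lists were chosen with earlier results of these data known. Values per library are given for members apart in 1 tissue whose highest tissue mean reached 10 CPM and for the leading chain of each class. Hspg2, Lama1, Itgad and Itgae are also given per library, though that rule does not cover them. Other members are given by their means; from each list up to 4 genes with the smallest p and a highest mean of 20 CPM or more were named. Outside that choice of up to 4, Tln1, Trp63, Myh11, Pecam1 and Ebf1 were named with values, and some markers for their 0 reads. Tln1 was chosen after its values were seen. Results of 1 member and of 2 marker genes are not reported here; counts over members and lists include them.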

Additional observations from a re-analysis of the deposited data

How the results depend on the processing

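Of the 91 calls over the members, 62 kept their direction and stayed past the threshold under all alternatives run for them (up to 20), and 29 missed it under at least 1. By comparison, 27 of 32 calls were kept for thymus against bone, 14 of 27 for thymus against skin and 21 of 32 for bone against skin. Leaving out 1 library ended 16 calls. The losses given beside single members do not cover every alternative. RLE and upper quartile factors, no filter, a filter of 1 CPM in 3 libraries, DESeq2 and fits of only the tissues compared kept every count of calls within 1.5 times of its value.

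Scaling moved the comparisons with skin. With library size only, all genes split as 7219 higher and 1239 lower in thymus than in skin (3013 and 2865 with TMM), and 7474 genes were higher and 1391 lower in bone against skin (3702 and 3661 with TMM). Members lower in thymus than in skin were then 6, and in bone than in skin 8. Members apart became 6 higher in thymus, 5 lower in bone and 1 higher in skin. Bone over skin turned to 0.04 for Hspg2 and 0.23 for Itgb5. Limma on log2(RPKM + 1) gave 6482 higher and 1173 lower genes in thymus than in skin and 6218 and 1534 in bone than in skin. With it, 6 members were lower in thymus than in skin, and those apart were 2 lower in thymus, 4 lower in bone, 1 higher in skin and 6 lower in skin. With log2(RPKM + 0.1) the genes were 6557 and 1188 in thymus and 6219 and 1529 in bone, against skin, and members apart were 5 higher and 2 lower in thymus, 5 lower in bone and 1 higher in skin. Without a filter, log2(RPKM + 1) gave 6569 and 1349 genes in thymus and 6728 and 1689 in bone. Members lower than in skin were then 4 in thymus and 9 in bone, and members apart were 2 lower in thymus, 4 lower in bone, 1 higher in skin and 6 lower in skin. Itgb5 in bone over skin was 0.1 in all 3 limma fits. Some calls were lost both with library size only and in all 3 limma fits. These were Agrn, Hspg2, Itga2, Itgb3 and Itgb5 in bone over skin, and Itga5, Itgb5 and Lamb3 in thymus over skin. The RPKM carry no TMM factor, and the cause of these shifts was not tested further.

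Whether replicate numbers pair the samples is not known. Deviations from the tissue means correlated at -0.033 to 0.076 for the 7 same-numbered pairs and at -0.066 to 0.07 for the other pairs. With 3 libraries per tissue, such values cannot settle whether the samples were paired. With the number as a replicate block, 1663 genes were higher in thymus than in bone (2584 without it), and 10 calls over the members missed the threshold. Among them were Itgal in thymus against skin (adjusted p = 0.0621) and Itga7 and Itgb8 in thymus against bone. Thymus 1-3 was alone in its block, so it added nothing to the comparisons in that fit. The effects of the block and of losing that library cannot be told apart. Leaving out 1 library at a time, members higher in thymus than in skin numbered 11 to 17, and members apart as higher in skin 1 to 4.

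In CPM without length, shares of the chain sums in thymus, bone and skin were 58.8, 35.1 and 54.6% for Lama2, 40.9, 56.8 and 45.1% for Lama4 and 99.2, 98.3 and 97.6% for Lamc1. Itga5 then held 17.4% in thymus and 37.5% in skin, and Itgb1 held 80.4% in thymus and 64.3% in bone. Depth limits Lama1, Itgad, Itgae, Itgb6 and, in skin, Itgb8, where a few reads set the fold.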
